A study of Mus musculus with 15 samples.

Results

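The 10 genes described here encode small EF-hand proteins of the S100 family (S100a1, S100a4, S100a6, S100a8, S100a9, S100a10 and S100a11) and stefins, the cytosolic inhibitors of cysteine cathepsins (Stfa1, Stfa2 and Stfa2l1). They were taken by gene name from the 38924 genes listed in the deposited tables, each name matched 1 row, and all 10 passed the filter on low counts that left 14967 genes to test. Because that filter needs only a few libraries with reads, Stfa1, Stfa2 and Stfa2l1 passed it through CD45hi libraries alone and so had to be high there.

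Most S100 proteins are pairs of EF-hand subunits that change shape on binding calcium and then dock onto target proteins. S100a8 and S100a9 join into calprotectin, which is stored in large amounts in the cytosol of neutrophils, is also made by monocytes, binds zinc and manganese, and is released as an alarm signal read by Toll-like receptor 4 and the receptor Ager. S100a10, which has lost calcium binding, holds annexin A2 at the membrane, S100a11 binds annexin A1, S100a4 binds non-muscle myosin, S100a6 binds calcyclin-binding protein, and S100a1 is best known from heart and muscle. The mouse stefin A genes lie in a cluster of close copies that is expressed in myeloid cells.

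The study asked how a western diet (WD) alters myeloid cells of the mouse brain. Male C57BL/6J wild type mice were kept on a chow diet (CD) or moved to the WD at 2 months of age, and all were 12 months old at collection. CD11b+ cells from perfused brain tissue were sorted into a CD45hi gate, which holds blood-derived myeloid cells together with microglia, and a CD45lo gate, which is mostly microglia. Poly(A) RNA was sequenced from 4 CD CD45hi, 4 CD CD45lo, 3 WD CD45hi and 4 WD CD45lo libraries. The study describes its deposited counts as given per animal, but neither it nor the labels say which CD45hi and CD45lo libraries came from the same mouse.

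Total expected counts were 11951412 to 17912272 per library (median 15100700), and 3 counts, used as the smallest measurable amount, equal 0.156 to 0.282 cpm, the normalised read count scaled to a common library size. The gates differed in the markers of several cell types. The 8 microglia markers summed to 12000 to 15300 cpm in CD45lo and 5670 to 6930 cpm in CD45hi libraries, and the 7 monocyte markers to 18.6 to 112 cpm in CD45lo and 714 to 1190 cpm in CD45hi libraries. The 8 lymphocyte markers summed to 11 to 94 cpm in CD45hi and 0 to 0.571 cpm in CD45lo libraries. Of the natural killer markers, Nkg7 and Klrb1c were called higher in CD45hi cells on both diets and Ncr1 on neither. Nkg7 and Klrb1c passed the filter through CD45hi libraries alone, so their differences had to be positive. In CD-fed mice the Klrb1c values of the gates overlapped. The 5 astrocyte markers summed to 40.6 to 111 cpm in CD45hi and 126 to 174 cpm in CD45lo libraries. The part of these cells in the values below was not tested. The 10 neutrophil markers summed to 639 to 1290 cpm in CD CD45lo and 1300 to 3250 cpm in CD CD45hi libraries. On the WD they summed to 727 to 942 cpm in CD45lo and 1140 to 2000 cpm in CD45hi libraries. The gates did not overlap within a diet, only when libraries of both diets were pooled. Csf3r, the receptor for G-CSF, made up much of these sums at 465 to 885 cpm in every library. Ly6g, the marker that defines mouse neutrophils, reached 7.34 cpm at most and was at 0 in at least 1 library of every group. In bulk libraries of sorted cells, fewer cells of a type and less RNA per cell cannot be told apart. On the second principal component, CD CD45hi library 4 (93) and WD CD45hi library 1 (-134.7) stood apart from the other libraries (-4.5 to 21.5). Without both of them the counts of called members in the 5 comparisons below were 7, 7, 0, 0 and 0, the same as with them.

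The stefins are shown first as sequence, because their likeness decides how far their counts can be told apart. The coding sequences of Stfa2 and Stfa2l1 (GENCODE M21, build GRCm38) are both 309 bases long and match at 298 positions (96.4%). Stfa1, with 384 bases, matches Stfa2 at 79% and Stfa2l1 at 77.7% of the positions aligned without a gap. The 90-base stretch that holds the most differences is given below, from base 273 of the coding sequence of Stfa1 and base 198 of those of Stfa2 and Stfa2l1, with capitals at the 31 positions where the 3 genes are not all alike.
Stfa1: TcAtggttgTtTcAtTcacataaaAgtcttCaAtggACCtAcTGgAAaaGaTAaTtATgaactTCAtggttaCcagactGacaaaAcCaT
Stfa2: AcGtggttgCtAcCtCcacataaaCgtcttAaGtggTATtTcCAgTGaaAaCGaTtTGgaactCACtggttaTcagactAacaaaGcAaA
Stfa2l1: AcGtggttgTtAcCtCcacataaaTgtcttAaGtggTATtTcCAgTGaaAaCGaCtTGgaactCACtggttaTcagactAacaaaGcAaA
Most capitals set Stfa1 apart from the other two, and only a few separate Stfa2 from Stfa2l1. Of the 75-base stretches of each transcript, the length of the sequenced reads, 23 of 345 in Stfa2l1 (6.67%) also occur in Stfa2, and 37 of 440 in Stfa1 (8.41%) occur in BC100530, a further stefin A gene.

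The 3 genes lie within the stefin A cluster on mouse chromosome 16, Stfa2l1 at chr16:36156811-36161953 and Stfa1 at chr16:36276951-36285373 on the plus strand and Stfa2 at chr16:36403992-36408457 on the minus strand. In the 100 bases before the RefSeq start site (GRCm38.p6), all 3 carry one identical run of 21 bases. In GENCODE M21, whose gene starts lie farther upstream for Stfa1 and Stfa2, the run falls inside the first exon of those 2 genes and is upstream of the gene only for Stfa2l1. It is shown because it is the longest run the 3 windows share, and it ends 12 bases before the start in Stfa1, 11 in Stfa2 and 15 in Stfa2l1.
Stfa1, Stfa2 and Stfa2l1: ACCTTTAAAACCCTGAGTCTC
It occurs at chr16:36277115-36277135 (Stfa1, plus strand), chr16:36408375-36408395 (Stfa2, minus strand) and chr16:36156775-36156795 (Stfa2l1, plus strand). Searched on both strands of the same 100-base window, the run was held by these 3 of 32851 RefSeq start windows (0.00913%).

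The 7 S100 genes lie on chromosome 3. S100a1, S100a4, S100a6, S100a8 and S100a9 occupy one stretch from chr3:90511034 to 90695721, and S100a11 (chr3:93520488-93526287) and S100a10 (chr3:93555080-93564643) lie next to each other farther along. No 75-base stretch of S100a1, S100a6, S100a8, S100a9 or S100a10 occurs in another gene's transcripts. S100a11 shares 165 of its 437 stretches (37.8%) with Gm12854, a processed copy. S100a4 shares 44.8% with Gm42674, a gene model that was not used here.

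The deposited expected counts, in which RSEM divides reads that match several genes, bear the mark of these copies. They were fractional in all 15 libraries for S100a11, in 4 of 4 libraries above 0 for Stfa1, in 6 of 6 for Stfa2 and in 6 of 11 for Stfa2l1, and whole in every library for the other 6 members. Over all tested genes 32.7% of the values above 0 were fractional.

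The first comparison asked which of the 10 genes differed between CD45hi and CD45lo cells on each diet. In WD-fed mice 7 of the 10 were called higher in CD45hi cells (edgeR glmTreat at 1.5-fold, FDR under 0.05), where 4.01% of all tested genes were called higher and 5.18% in either direction. In CD-fed mice 7 were also called higher, where 3.39% of all tested genes were called higher and 3.98% in either direction. They were the same genes on both diets, S100a4, S100a6, S100a8, S100a9, S100a10, S100a11 and Stfa2l1, and none was called lower. The 3 stefins passed the filter only through the CD45hi libraries where they are high, so the counts are also given for the 7 S100 genes alone, a split made after the values were seen. Of these, 6 were called higher on each diet. Their median log2 fold change was 3.43 in WD-fed and 3.56 in CD-fed mice, against 0 and 0.036 for all tested genes. The CD45hi libraries lay above all CD45lo libraries for 7 of the 7 in WD-fed mice (10% of all tested genes) and for 6 of the 7 in CD-fed mice (8.26%). The 10 genes were chosen with earlier results of these data known, so these counts describe them and do not test them against all genes.

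**Figure D1:**
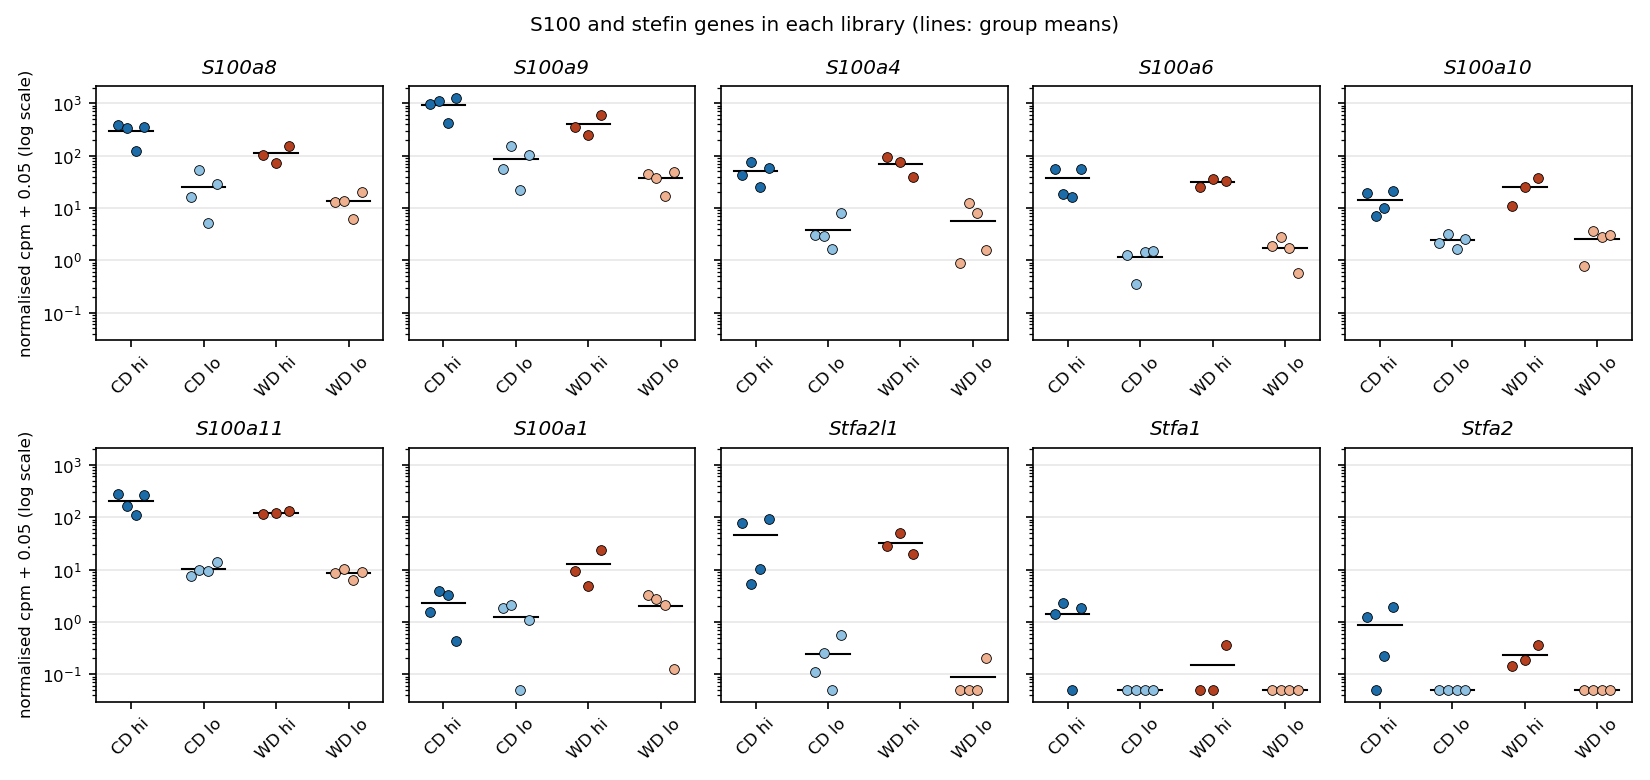
Normalised cpm plus 0.05 (log scale) of each gene in each of the 15 libraries, grouped by diet and CD45 level (hi, CD45hi and lo, CD45lo), with a line at each group mean. The points of CD45hi libraries lie above those of CD45lo libraries on both diets for S100a4, S100a6, S100a8, S100a9, S100a10, S100a11 and Stfa2l1, while those of S100a1 overlap between the gates in CD-fed mice.

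S100a8 and S100a9 encode the calprotectin subunits. In CD-fed mice S100a8 was at 383, 343, 125 and 355 cpm in CD45hi libraries 1 to 4 and at 16.2, 52.1, 5.04 and 28.5 cpm in CD45lo libraries 1 to 4. In WD-fed mice it was at 101, 73.3 and 156 cpm in the 3 CD45hi libraries and at 13.2, 13.7, 6.2 and 20.2 cpm in the 4 CD45lo libraries. The groups did not overlap on either diet and CD CD45hi library 3 stood well below the other 3 of its group. The difference was 11.8-fold in CD-fed mice (log2 3.56, SE 0.57, FDR 0.00125) and 8.28-fold in WD-fed mice (log2 3.05, SE 0.581, FDR 0.00607) by edgeR glmTreat. In CD-fed mice it was 4.15 on the log2 scale without CD45lo library 2, the highest of its group.

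S100a9 followed the same pattern. It was at 968, 1110, 420 and 1290 cpm in CD CD45hi and 56.4, 155, 22.5 and 105 cpm in CD CD45lo libraries, 11.2-fold apart (log2 3.48, SE 0.519, FDR 0.000705). In WD-fed mice it was at 351, 252 and 596 cpm in CD45hi and 44.9, 37.8, 16.7 and 49.3 cpm in CD45lo libraries, 10.8-fold apart (log2 3.43, SE 0.536, FDR 0.00106). The lowest CD45hi library stood above the highest CD45lo library on both diets. CD45lo cells held 8.96% of the mean CD45hi level of S100a9 in CD-fed and 9.31% in WD-fed mice, and 8.46% and 12.1% for S100a8. Of the 10 neutrophil markers 4, Cxcr2, Retnlg, Mmp8 and Mmp9, were called higher in CD45hi cells on both diets. Of all tested genes, 4.01% were called higher in WD-fed and 3.39% in CD-fed mice. Ly6g, Csf3r, Lcn2, Ltf, Ngp and Camp were not called on either diet. The part of neutrophil number in the S100a8 and S100a9 values was not tested.

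Per length, in the deposited TPM values, S100a9 stood above S100a8 in every library. The TPM ratio of S100a9 to S100a8 was 2.09 ± 0.314 (SD, n = 4) in CD CD45hi, 2.37 ± 0.397 (SD, n = 4) in CD CD45lo, 2.34 ± 0.123 (SD, n = 3) in WD CD45hi and 1.84 ± 0.266 (SD, n = 4) in WD CD45lo libraries, and its range over all 15 was 1.6 to 2.89. In 2-sided exact permutation tests of the log2 ratio, CD45hi differed from CD45lo by 0.36 in WD-fed mice (p = 0.0571, Benjamini-Hochberg over the 4 comparisons 0.114) and by -0.18 in CD-fed mice (p = 0.371). WD differed from CD by 0.17 in CD45hi (p = 0.286) and by -0.36 in CD45lo cells (p = 0.0571, adjusted 0.114), exact permutation tests whose smallest possible p was 0.0286. Across the same libraries the level of S100a8 itself spanned 5.04 to 383 cpm. S100a9 was also the tested gene whose centred log2 cpm lay nearest to that of S100a8 over the 15 libraries (root mean square difference 0.228), followed by Ifitm6 (0.781) and Cd24a (0.782).

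S100a11, which binds annexin A1, had the smallest standard errors of the group. It was at 274, 165, 109 and 269 cpm in CD CD45hi and 7.47, 9.7, 9.47 and 14 cpm in CD CD45lo libraries. Its WD levels were 116, 119 and 131 cpm in CD45hi and 8.72, 10.3, 6.31 and 8.94 cpm in CD45lo libraries. The WD CD45hi libraries lay close together, while CD CD45hi libraries 1 and 4 were well above 2 and 3. The gates differed 20.1-fold in CD-fed mice (log2 4.33, SE 0.319, FDR 3.15e-07) and 14.2-fold in WD-fed mice (log2 3.83, SE 0.322, FDR 2.13e-06). RSEM assigned 78% to 99.9% of the counts of S100a11, Gm12854 and Gm7665 to S100a11, and with the 3 summed, an alternative chosen after seeing the data, the log2 fold changes were 4.28 and 3.7.

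S100a6, the partner of calcyclin-binding protein, showed the largest log2 fold change of the S100 genes on both diets. It was at 55.7, 18.3, 16.1 and 56.6 cpm in CD CD45hi and 1.24, 0.311, 1.41 and 1.48 cpm in CD CD45lo libraries, 32.9-fold apart (log2 5.04, SE 0.673, FDR 0.000184). The WD levels were 24.9, 36 and 33.5 cpm in CD45hi and 1.84, 2.75, 1.65 and 0.53 cpm in CD45lo libraries, 18.5-fold apart (log2 4.21, SE 0.663, FDR 0.000924). CD CD45hi libraries 1 and 4 were again the high ones. The differences between these fold changes and those of the other S100 genes were not tested.

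S100a4, a marker of monocytes and macrophages that binds non-muscle myosin, varied widely within CD45lo cells. It was at 43.6, 77, 24.7 and 58.8 cpm in CD CD45hi and 3, 2.91, 1.6 and 7.83 cpm in CD CD45lo libraries, 13.3-fold apart (log2 3.73, SE 0.744, FDR 0.00784). On the WD it was at 95, 76.5 and 38.6 cpm in CD45hi and 0.852, 12.2, 7.96 and 1.52 cpm in CD45lo libraries, 12.4-fold apart (log2 3.63, SE 0.762, FDR 0.0104). In WD CD45lo cells, libraries 2 and 3 were high and 1 and 4 low, as they were for the summed monocyte markers (112 and 61.1 against 42.4 and 18.6 cpm). Leaving out WD CD45lo library 2 gave a log2 fold change of 4.33, and leaving out CD CD45lo library 4 gave 4.35 in CD-fed mice. The nearest genes to S100a4 over the 15 libraries were Crip1 (0.607), Iqgap2 (0.638) and Anxa2 (0.646).

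S100a10, the annexin A2 partner, had the smallest of the 7 called differences in CD-fed mice. It was at 19.5, 7.04, 9.85 and 21.1 cpm in CD CD45hi and 2.12, 3.16, 1.6 and 2.55 cpm in CD CD45lo libraries, 6.07-fold apart (log2 2.60, SE 0.614, FDR 0.0315). The WD libraries had 11, 25.2 and 38 cpm in CD45hi and 0.721, 3.56, 2.8 and 3.03 cpm in CD45lo libraries, 9.76-fold apart (log2 3.29, SE 0.653, FDR 0.0077). The call in CD-fed mice was lost in 11 of 30 alternatives, among them leaving out CD CD45hi library 1 or 4 or any 1 of the 4 CD CD45lo libraries (edgeR FDR 0.0666 to 0.107), although the log2 fold change stayed between 2.35 and 2.83. The nearest genes to S100a10 were Ifi204 (0.626), Lyz2 (0.644) and Oasl2 (0.678).

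S100a1 was the S100 gene that was not called. It was at 1.51, 3.89, 3.25 and 0.386 cpm in CD CD45hi and 1.82, 2.02, 0 and 1.02 cpm in CD CD45lo libraries (log2 0.88, SE 1.12, FDR 0.949 by edgeR glmTreat). In WD-fed mice it was at 9.22, 4.7 and 23.5 cpm in CD45hi and 3.15, 2.67, 2.03 and 0.0758 cpm in CD45lo libraries (log2 2.65, SE 1.21, FDR 0.281). The WD libraries of the 2 gates did not overlap, but the spread within each was wide.

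**Figure D2:**
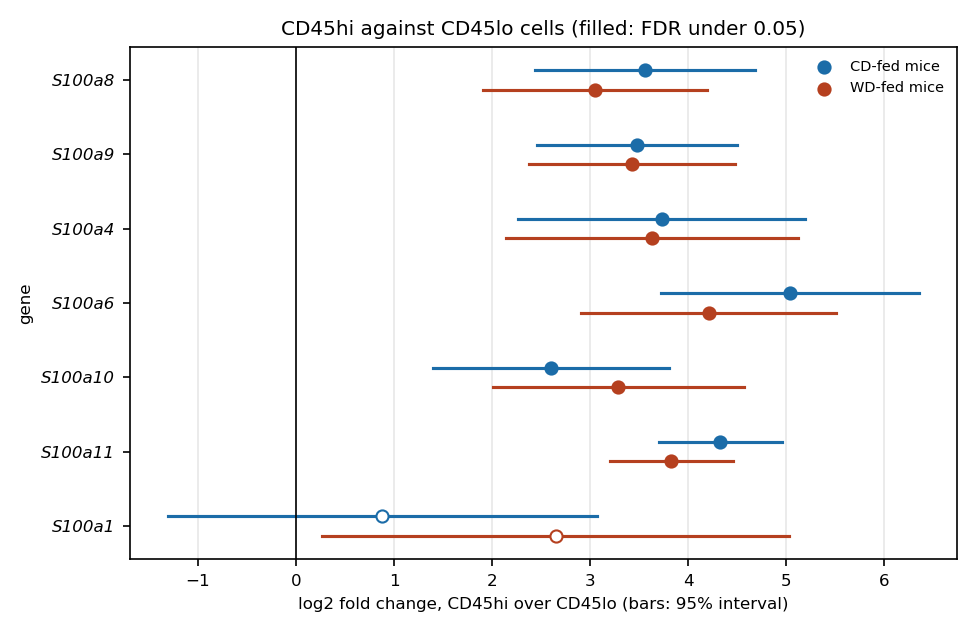
Log2 fold change of CD45hi over CD45lo cells for the 7 S100 genes in CD-fed and WD-fed mice, with 95% intervals (1.96 SE) and filled points where the edgeR glmTreat FDR was under 0.05. The 6 called genes lie between 2.60 and 5.04 on both diets, and S100a1 has the widest intervals.

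Stfa2l1 passed the filter through the CD45hi libraries alone, so its difference had to be positive. It was at 77.5, 5.3, 10.1 and 92.5 cpm in CD CD45hi and 0.0588, 0.208, 0 and 0.511 cpm in CD CD45lo libraries (log2 7.82, SE 1.16, FDR 0.000431). In WD-fed mice it was at 27.6, 50.1 and 19.9 cpm in CD45hi libraries, at 0 in 3 CD45lo libraries and at 0.152 cpm in the fourth. Since all WD CD45lo libraries were at or under 3 counts, the difference was at least 143-fold (edgeR FDR 0.000282), measured against 3 counts per library. In CD-fed mice the CD45lo level rested on library 4, and without it the log2 fold change was 8.84.

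Stfa1 and Stfa2 were far scarcer. Stfa1 had 20.55, 27.27, 0 and 27.74 expected counts in CD CD45hi libraries, 0, 0 and 3.67 in WD CD45hi libraries and 0 in all 8 CD45lo libraries. Stfa2 had 18.17, 0, 2.02 and 29.27 in CD CD45hi, 1.01, 2.03 and 4.06 in WD CD45hi and 0 in all CD45lo libraries. Neither was called on either diet (edgeR FDR 0.114 and 0.115 in CD-fed mice, 0.396 and 0.256 in WD-fed mice). Their mean CD45hi levels in CD-fed mice were 7.34-fold and 4.37-fold above 3 counts in a CD45lo library. With 1 CD45hi library of each gene at 0, the gates overlapped, so these values describe the means only. Of the 397 stretches of 75 bases in Stfa2, 23 (5.79%) also occur in Stfa2l1, and RSEM divides the reads that match both genes.

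Summing the 9 stefin A genes into 1 feature removes the question of how reads were divided. The sum was 95.4, 30.1, 15.5 and 123 cpm in CD CD45hi and 0.0588, 0.208, 0 and 1.36 cpm in CD CD45lo libraries (log2 7.30, SE 1.19, edgeR FDR 0.001). In WD-fed mice it was 28.4, 51.7 and 24.3 cpm in CD45hi and 0, 0.223, 1.15 and 0.152 cpm in CD45lo libraries (log2 6.41, SE 1.17, edgeR FDR 0.00284). Csta, one of the genes summed, gave all 21 counts of WD CD45lo library 3 and 2 counts in WD CD45lo library 2. It was at 0 in every CD45hi library, so the WD CD45lo level of the sum rests largely on Csta. Stfa2l1 gave 65.3% to 97% of the sum in 6 of the 7 CD45hi libraries. In CD CD45hi library 2 it gave 17.6% and Gm5483, another gene of the cluster, gave 54.5%.

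**Figure D3:**
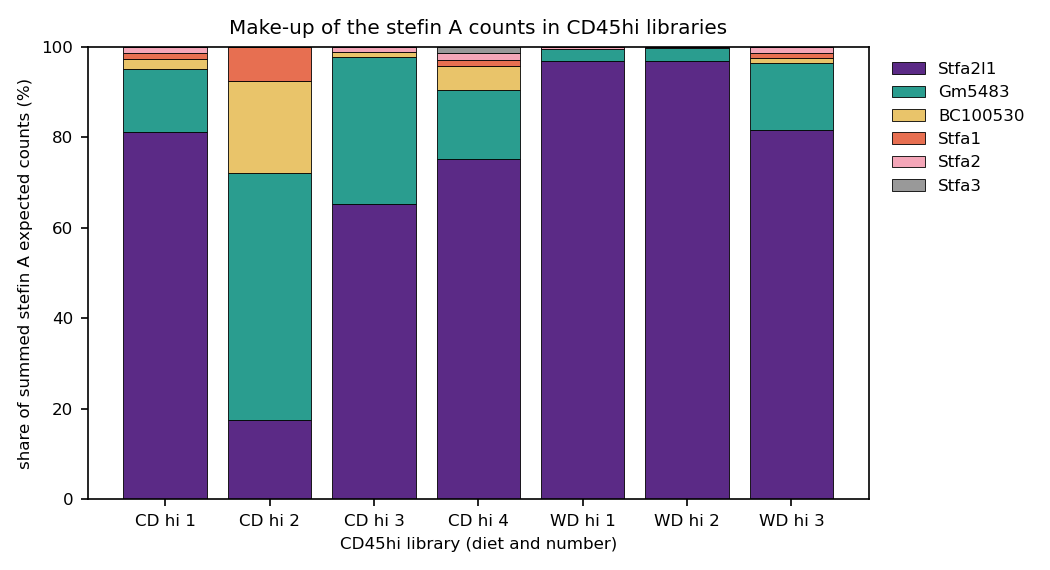
Share (%) of each stefin A gene in the summed stefin A expected counts of the 7 CD45hi libraries, 4 from CD-fed and 3 from WD-fed mice. Stfa2l1 makes up most of every bar except CD CD45hi library 2, where it is 17.6% and Gm5483 54.5%.

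Stfa2l1 and S100a9 did not keep a fixed ratio. Per 1000 TPM of S100a9, Stfa2l1 was at 111, 6.68, 33.5 and 99.4 TPM in CD CD45hi libraries and at 109, 277 and 46.6 TPM in WD CD45hi libraries. In CD45lo libraries it was at 0 to 6.81 TPM. The CD45lo value of CD library 4 (6.81) exceeded the CD45hi value of CD library 2 (6.68), and the ranges otherwise lay apart. Across the 7 CD45hi libraries, as a description over libraries of both diets, the log2 cpm of Stfa2l1 correlated with that of S100a6 (r = 0.93) and hardly with those of S100a8 (r = 0.1) and S100a9 (r = 0.07), while S100a8 and S100a9 correlated with each other (r = 0.98). Across the 8 CD45lo libraries, where Stfa2l1 is near or under the 3-count limit, r was -0.51 with S100a6, 0.77 with S100a8 and 0.8 with S100a9. The genes nearest to Stfa2l1 over the 15 libraries were Irg1 (1.03), Cxcl9 (1.07) and Cxcl2 (1.12).

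**Figure D4:**
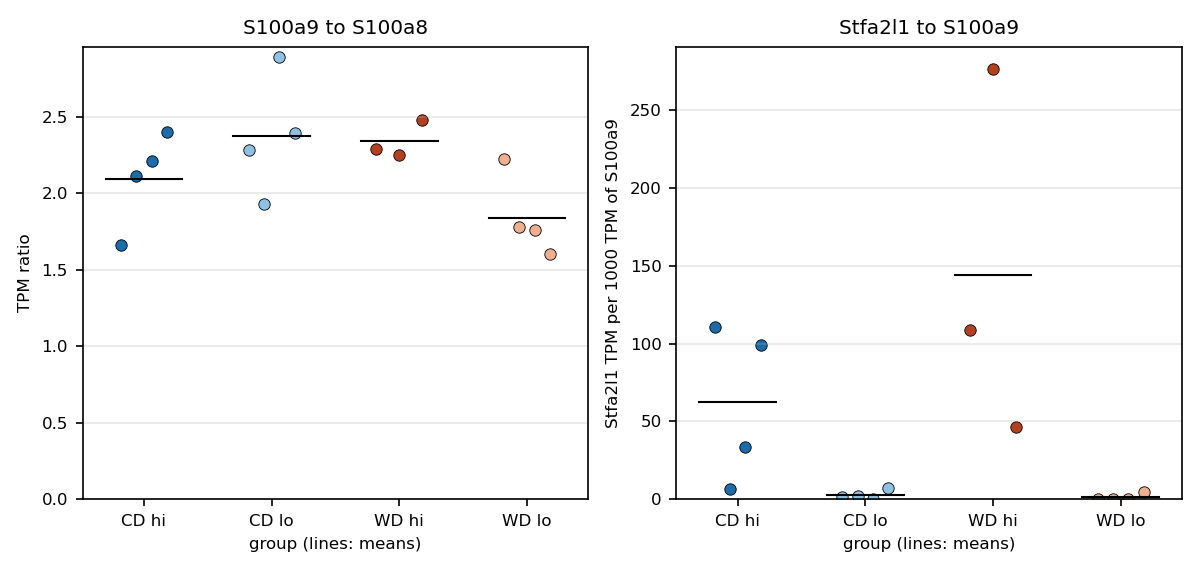
TPM ratio of S100a9 to S100a8 (left) and Stfa2l1 TPM per 1000 TPM of S100a9 (right) in each of the 15 libraries by group (hi, CD45hi and lo, CD45lo), with a line at each mean. The left ratio stays between 1.6 and 2.89, and the right one spans 6.68 to 277 in CD45hi and 0 to 6.81 in CD45lo libraries.

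In order of mean TPM, CD CD45hi cells ranked S100a9 (3700), S100a8 (1800), S100a11 (798), Stfa2l1 (243), S100a4 (211), S100a6 (88.9), S100a10 (37.1), Stfa1 (7.29), S100a1 (6.36) and Stfa2 (4.08). S100a9, S100a8 and S100a11 kept this order in all 4 libraries, whereas Stfa2l1 was above S100a4 in only 2 of them. WD CD45hi cells ranked S100a9 (1510), S100a8 (634) and S100a11 (458) first, but S100a8 was above S100a11 in 2 of the 3 libraries. CD45lo cells of both diets ranked S100a9, S100a8, S100a11, S100a4 and S100a10 highest, with Stfa2l1 below all S100 genes.

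The second comparison asked whether diet altered these genes. In CD45hi cells edgeR glmQLFTest called 0 of the 10 between the diets at an FDR under 0.05, where 0.254% of all tested genes were called. DESeq2 and limma-voom also called 0, the edgeR 4 form of the test called 1, S100a1 (log2 2.56, FDR 0.044), where these tools called 6.88%, 0.18% and 1.68% of all tested genes, and 3 members had an unadjusted p under 0.05 (17.6% of all tested genes did). These were S100a8 (110 cpm in WD against 301 cpm in CD, log2 -1.45, SE 0.58, FDR 0.212), S100a9 (400 against 947 cpm, log2 -1.24, SE 0.526, FDR 0.233) and S100a11 (122 against 204 cpm, log2 -0.74, SE 0.305, FDR 0.221). For each of the 3 the WD and CD libraries overlapped, since CD CD45hi library 3 lay within or below the WD range. The neutrophil markers summed to 1300 cpm in that library and to 2750 to 3250 cpm in the other CD CD45hi libraries, against 1140 to 2000 cpm in WD CD45hi libraries, and their part in these values was not tested. S100a1, whose CD45hi libraries did not overlap between diets (2.58% of all tested genes did so in this direction), had a log2 difference of 2.46 (SE 1.21, FDR 0.303), which was 1.62 without WD CD45hi library 3. S100a4 (0.46, SE 0.712), S100a6 (-0.22, SE 0.608), S100a10 (0.78, SE 0.618) and Stfa2l1 (-0.51, SE 0.906) had FDR values of 0.547 to 0.899, and the sign turned when CD CD45hi library 4 was left out for S100a6 and Stfa2l1 (0.07 for each) and when CD CD45hi library 1 was left out for S100a6 (0.05).

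In CD45lo cells 0 of the 10 were called between the diets by edgeR glmQLFTest, and 0% of all tested genes were. DESeq2 and limma-voom also called 0, and S100a9 alone had an unadjusted p under 0.05, as did 0.822% of all tested genes (37.2 cpm in WD against 84.8 cpm in CD, log2 -1.19, SE 0.481, FDR 1). S100a8 had 13.3 against 25.5 cpm (log2 -0.94, SE 0.528, FDR 1). The interaction, which asks whether the difference between the gates depended on diet, was called for 0 of the 10 (0.00668% of all tested genes), with 0 at an unadjusted p under 0.05 (10.1% of all tested genes) and 0 by DESeq2 or limma-voom. The 95% intervals of the interaction on the log2 scale were wide. They ran from -2.02 to 0.99 for S100a8, -1.42 to 1.32 for S100a9 and -1.31 to 0.31 for S100a11. An interaction of any size within these intervals is compatible with these libraries.

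**Figure D5:**
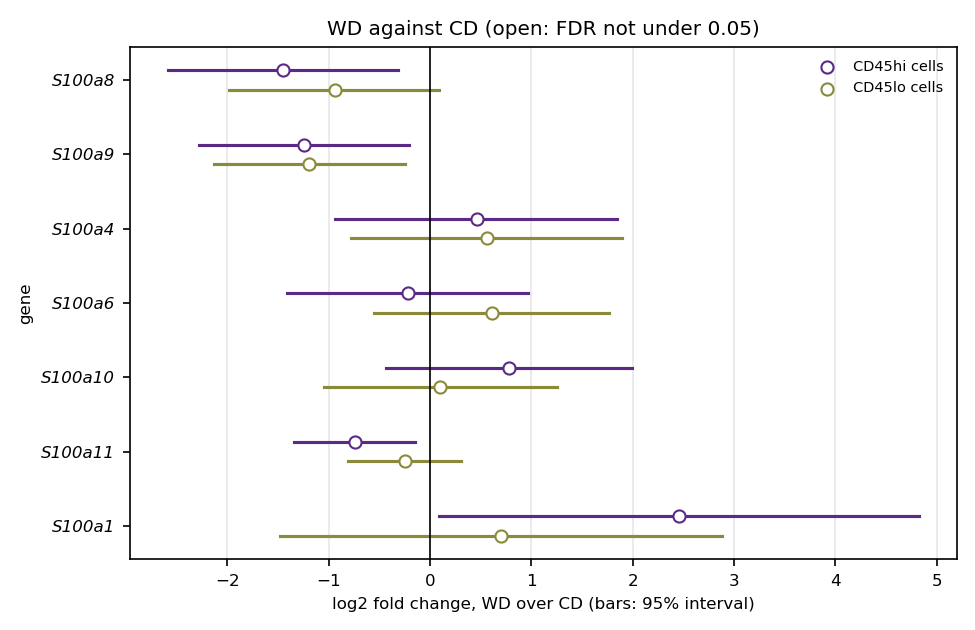
Log2 fold change of WD over CD for the 7 S100 genes in CD45hi and CD45lo cells, with 95% intervals (1.96 SE) and open points because no FDR was under 0.05 by edgeR glmQLFTest. S100a8 and S100a9 lie below 0 in both gates, and S100a1 has the highest estimate in CD45hi cells, 2.46 (1.62 without WD CD45hi library 3). Its interval there runs from 0.09 to 4.83, yet its unadjusted p by edgeR glmQLFTest was 0.0575.

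Of the 12 listed S100 partners and receptors, 4 were called higher and 1 lower in CD45hi cells of WD-fed mice and 4 higher in CD-fed mice, where 4.01%, 1.17% and 3.39% of all tested genes were. Anxa2, the membrane partner of S100a10, was at 63.7 cpm in WD CD45hi against 4.09 cpm in WD CD45lo cells (log2 3.96, SE 0.479, FDR 8.31e-05 by edgeR glmTreat) and at 65.2 against 4.16 cpm in CD-fed mice (log2 3.97, SE 0.465, FDR 6.45e-05). Ahnak, a giant scaffold protein bound by S100a10 and Anxa2, had the largest difference (log2 4.65, SE 0.462 in CD-fed and 4.11, SE 0.462 in WD-fed mice), and Anxa5 was called on both diets too. Anxa1, the partner of S100a11, was called in WD-fed mice (log2 3.17, SE 0.783, FDR 0.0302) and not in CD-fed mice (2.61, SE 0.734, FDR 0.0786). Myh9, the non-muscle myosin chain bound by S100a4, was called in CD-fed mice with the smallest difference (log2 1.09, SE 0.176, FDR 0.0309) and not in WD-fed mice (0.89, SE 0.186, FDR 0.16). Sugt1 was called lower in WD-fed mice (8.43 against 26.8 cpm, FDR 0.049). Its means on the CD were close, 29.8 cpm in CD45hi and 31.1 cpm in CD45lo libraries (log2 -0.06, SE 0.354). Tlr4, a receptor for calprotectin, was at 91.3 cpm in CD45hi and 117 cpm in CD45lo cells of WD-fed mice and was not called (log2 -0.36, SE 0.289, FDR 0.882 by edgeR glmTreat). Ager, its other receptor, was at 0.0314 cpm in CD45hi against 1.05 cpm in CD45lo cells of WD-fed mice. In CD-fed mice Ager was at 1.48 against 1.46 cpm, and it was called on neither diet. Cacybp, the calcyclin-binding protein bound by S100a6, was not called either (log2 -0.21, SE 0.534 in WD-fed and -0.22, SE 0.493 in CD-fed mice).

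The other S100 genes were scarce. Of 10 listed, only S100a13 and S100b passed the filter and neither was called in any comparison by edgeR, with 0 at an unadjusted p under 0.05. S100a2, S100a3, S100a5, S100a7a, S100g and S100z were at or under 3 counts in every library. Among the other stefins and cystatins 5 of 9 found were tested, and Gm5483 alone was called, higher in CD45hi cells on both diets (13.3 against 0.17 cpm in CD-fed mice, FDR 0.0169, and at least 8.45-fold in WD-fed mice, FDR 0.0295). It reached 0.681 cpm at most in CD45lo libraries and passed the filter through CD45hi libraries alone, so its difference had to be positive. BC117090 and Gm4758 were at 0 counts in every library. Cst3, the secreted cystatin C of microglia, was at 4700 against 7970 cpm in CD-fed mice (log2 -0.76, SE 0.0975) and did not pass the 1.5-fold test (FDR 0.152). Of the 10 cysteine cathepsins, the proteases that stefins inhibit, Ctsc was called higher in CD45hi cells on both diets (log2 0.99, SE 0.131 in CD-fed and 1.00, SE 0.139 in WD-fed mice), Ctso was called lower in WD-fed mice (52 against 125 cpm, FDR 0.0412), and the other 8 were not called. Of all tested genes, 4.01% were called higher and 1.17% lower in CD45hi cells of WD-fed mice. In CD-fed mice 3.39% were called higher. None of the 4 lists had a gene called by edgeR between the diets in either gate or in the interaction. Sugt1 had an FDR of 0.0623 by glmQLFTest for diet in CD45hi cells (log2 -1.82, SE 0.406). Its CD45hi libraries did not overlap between the diets, with means of 8.43 cpm on the WD and 29.8 cpm on the CD. The study counts Sugt1 among the genes that differed with diet in CD45hi cells. At an unadjusted p under 0.05 there were 2 partners, 1 stefin or cystatin and 1 cathepsin in CD45hi cells, none in CD45lo cells, and 1 partner and 1 cathepsin in the interaction, out of 12, 5 and 10 tested. Of all tested genes 17.6%, 0.822% and 10.1% reached it.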

How the data were processed

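RNA from the 15 libraries was sequenced as 75 bp paired-end reads. Per the labels and the study's methods, the authors estimated gene expression with RSEM (version 1.2.12) on mm10, and the deposited tables hold expected counts and TPM for each gene. The annotation release and the strand setting are not given in the sources used here, and bcl2fastq 2.18.0.12 is named in the submitters' processing notes.

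Expected counts were rounded, a gene was kept where 2 or more libraries reached 1 cpm, and all 15 libraries were fitted together as 4 groups, after TMM normalisation, with edgeR 4.0.16 (legacy quasi-likelihood) in R 4.3.3. CD45hi and CD45lo cells were compared with glmTreat at 1.5-fold, and the diets and the interaction with glmQLFTest. P-values were adjusted over all tested genes (Benjamini-Hochberg, FDR threshold 0.05). Scripts were tested on simulated data. A group with every library at or under 3 counts was given a lower bound of fold, measured against 3 counts in the library where these weigh most. Counting error only is covered by this limit. The standard error was taken from the F statistic of the test of any change (absolute log2 fold change over the root of F), and 95% intervals are 1.96 SE wide on each side. These intervals use the normal quantile, so they are somewhat narrower than intervals matched to the F test would be.

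The text names the 10 genes, members of lists of partners, relatives, cathepsins and cell type markers, and the 3 genes nearest in centred log2 cpm (prior count 2) to S100a8, S100a4, S100a10 and Stfa2l1. Of a list, the called genes with the largest and smallest change and those at or under 3 counts throughout are named. Tlr4, Ager, Cacybp, Cst3, Anxa1, Sugt1, Ctso and Ncr1 were added after their values were seen. The 10 genes and the lists were chosen with earlier results of these data known. Shared stretches of sequence were counted on GENCODE M21 transcripts, and promoters came from RefSeq (GRCm38.p6), where 9 of the 10 genes had an entry. No 2 libraries of a group held identical values or agreed within sampling noise (chi-square per degree of freedom 20.6 to 135). Replicate numbers were checked for pairing by a correlation over all tested genes, which was low, and the main fit was unpaired. That check cannot exclude that libraries shared a mouse, and fits with a replicate block are given below. Alternatives were DESeq2 1.42.0, limma-voom (limma 3.58.1), the edgeR 4 form, other normalisations, filters, samples, unrounded counts, a replicate block, summed copies and leaving out each library.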

Additional observations from a re-analysis of the deposited data

Results flagged for a closer look

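Among the 29 sets of values of 1 gene in a group of 4 libraries, 2 held a library far from the other 3, and chance alone sets apart about 1 in 20 such groups. S100a8 was at 125 cpm in CD CD45hi library 3 and at 343 to 383 cpm in the other 3 libraries, a gap of 0.844 of the whole range. The neutrophil markers summed to 1300 cpm in that library and 2750 to 3250 cpm in the others, and the monocyte markers to 714 cpm against 835 to 1190 cpm. CD CD45lo library 3 was likewise the lowest of its group for S100a8 (5.04 cpm), the neutrophil sum (639 cpm) and the monocyte sum (26.7 cpm). Stfa2l1 was at 0.152 cpm in WD CD45lo library 4 and at 0 in the other 3, a gap of 1 of the range that rests on fewer counts than the limit of 3.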

How the results depend on the processing

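The count of called members was 7 in WD-fed and 7 in CD-fed mice for CD45hi against CD45lo cells and 0 in the other 3 comparisons, and leaving out each library in turn gave 7 to 7, 6 to 7 and 0 to 0. It was 1 (S100a1, log2 2.56) for diet in CD45hi cells with the edgeR 4 form, which also called S100a1 in WD-fed mice (2.60, FDR 0.0229). No called fold change turned in sign. Calls were lost for S100a8 in WD-fed mice under limma-voom (3.14, FDR 0.056), for S100a4 in WD-fed mice with only the compared libraries (3.62, FDR 0.0558) and for S100a10 in CD-fed mice under limma-voom (2.55), without TMM (2.35) and without the filter (2.58), where the cause was not tested. Uncalled values that turned in sign were, with both libraries apart on the second principal component left out (chosen after seeing the data), S100a6 (0.21) and Stfa2l1 (0.17) for diet in CD45hi cells and S100a9 (0.22) for the interaction, and under limma-voom Stfa2l1 (0.12) for diet in CD45hi cells, S100a10 (-0.09) for diet in CD45lo cells and S100a4 (0.36) for the interaction. Leaving out each library gave -0.47 to 0.07 for S100a6 and -0.97 to 0.07 for Stfa2l1 for diet in CD45hi cells, -0.14 to 1.17 for S100a4 and -0.11 to 0.41 for S100a10 for diet in CD45lo cells, and -0.49 to 0.26 for S100a9 and -0.71 to 0.60 for S100a4 for the interaction. S100a1 in WD-fed mice was at 1.81 (2.65 with all libraries) without WD CD45hi library 3. Over all tested genes, same-numbered libraries of the 2 gates shared little deviation from their group means. The r was 0.00978 to 0.0695 for CD libraries and -0.0217 to 0.013 for WD libraries over both numberings, by title and by file. In CD libraries 1 to 4, however, the neutrophil sums ranked alike in both gates (2750, 3250, 1300 and 2910 cpm in CD45hi, 747, 1290, 639 and 1020 cpm in CD45lo). So did the monocyte and microglia sums, while those of the other cell types did not. In WD libraries none of these 3 sums ranked alike under either numbering. An r over all genes cannot exclude a shared mouse. With a replicate block by title number the count of called members was 7 in WD-fed and 6 in CD-fed mice, by file number 6 and 6, and 0 in the other comparisons it could be fitted to. Under the block S100a10 was not called in CD-fed mice (2.52, FDR 0.117 by title and 0.14 by file) or, by file number, in WD-fed mice (2.83, FDR 0.157), and Stfa2l1 turned to 0.68 for diet in CD45hi cells. Among all tested genes the number called ranged over these settings from 353 to 2358 in WD-fed and 412 to 1867 in CD-fed mice for CD45hi against CD45lo cells, and from 0 to 1030 for diet in CD45hi cells, 0 to 4 in CD45lo cells and 0 to 188 for the interaction, against 775, 595, 38, 0 and 1. With 3 or 4 libraries a group, genes near the 3-count limit such as Stfa1 and Stfa2 were beyond precise measurement.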

Other observations

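Markers of further cell types that a CD11b sort could carry were summed in each library. The 5 erythroid markers came to 13 to 132 cpm in CD45hi and 9 to 128 cpm in CD45lo libraries, the 5 oligodendrocyte markers to 96.2 to 230 and 65.1 to 105 cpm, the 5 neuron markers to 0.537 to 42.2 and 3.49 to 12.6 cpm, and the 5 vascular markers to 33.5 to 92.3 and 28.6 to 60.9 cpm. Their part in the S100 and stefin values was not tested. The 10 genes together took 0.0549% to 0.188% of all expected counts in CD45hi and 0.00448% to 0.0243% in CD45lo libraries.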
